A study of Mus musculus with 6 samples.

Results

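The skeletal muscle genes of back skin were described across cyclosporin A and ethanol treatment. The genes comprised 40 named components of the sarcomere and of muscle calcium handling and energy supply, and every probe whose accession maps to 1 of them was taken. Of the 40 genes, 38 had at least 1 such probe, and their 62 probes stood among 41174 probes on the array. After a filter on dim spots 61 probes remained, and 37 muscle genes entered the tests among 22750 genes in all. No probe was named by accession for Neb (nebulin) or Xirp1, and these are not analysed here. The single probe of Myl2, the slow regulatory light chain, was well above background on 2 of 6 arrays in the cyclosporin A channel and 0 of 6 in the ethanol channel and did not pass.

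Back skin of C57/BL mice was profiled on 6 dual-colour Agilent whole genome arrays. The treated group received cyclosporin A, an immunosuppressant that blocks the phosphatase calcineurin, and its RNA carried Cy5. The control group received ethanol, and its RNA carried Cy3. Skin was taken 2, 4 and 7 days after treatment, with 2 arrays per day, so that every array paired the 2 treatments at the same time point. The labels give no dose, route, age or sex, and they do not say how many animals stand behind a sample. The p-values below therefore measure the spread between these samples, and the number of arrays limits the precision.

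Striated muscle shortens when myosin heads of the thick filament pull on actin of the thin filament, and the 2 filaments together with their anchors form the sarcomere. Calcium released from the sarcoplasmic reticulum binds troponin on the thin filament and so starts contraction. Mouse skin carries a sheet of striated muscle, the panniculus carnosus, beneath the subcutaneous fat, and back skin taken to full depth includes it. In muscle fibres calcineurin dephosphorylates NFAT factors and is known as a regulator of slow-fibre genes.

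Every ratio is given as log2 of cyclosporin A over ethanol after intensity-dependent (loess) normalization, for each array or as the mean of the 2 arrays of a day with limma's standard error (SE). A gene was called when its Benjamini-Hochberg adjusted p over all 22750 genes was under 0.05. Where a gene had several probes, its brightest one on average was used. Because muscle genes gave bright spots, values are also given under median centring for the lists and for most genes named, which shifts every spot of an array by 1 constant. Under median centring the median of all genes stood above 0, at 0.39, 0.269 and 0.166 at days 2, 4 and 7, so that a positive value there is not by itself higher than other genes. Under loess the median of all genes was 0.036, 0.038 and 0.029.

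The samples held both skin and muscle transcripts. The epidermal keratins Krt5, Krt14 and Krt10 and the dermal genes Col1a1 and Dcn were well above background in both channels on 6 of 6 arrays. Of the 37 muscle genes tested, 36 were well above background on all arrays in the cyclosporin A channel and 34 in the ethanol channel. The slow troponin gene Tnni1 was well above background on 0 arrays in the ethanol channel. Of the 6 heart genes tested, 5 were well above background on all arrays in the cyclosporin A channel and 1 in the ethanol channel. Nppa and Myl7 were so on 0 arrays in the ethanol channel. In bulk skin, fewer muscle fibres in the piece taken and less RNA per fibre cannot be told apart.

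The 2 arrays of a day stood apart for the muscle genes. Their median ratio was -0.25 and 0.07 on the arrays of day 2, -0.31 and -0.68 on those of day 4, and -0.08 and -0.68 on those of day 7. Under median centring the same medians were 0.52 and 1.02 at day 2, 0.66 and -0.07 at day 4, and 0.57 and 0.14 at day 7. Replicate 2 was thus the lower array of days 4 and 7 under both normalizations, and the higher array of day 2. Slide 1 carried days 2 and 4 and slide 2 carried day 7, so that slide and day 7 cannot be told apart. With no dye swap, dye and treatment cannot be told apart within a day.

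**Figure D1:**
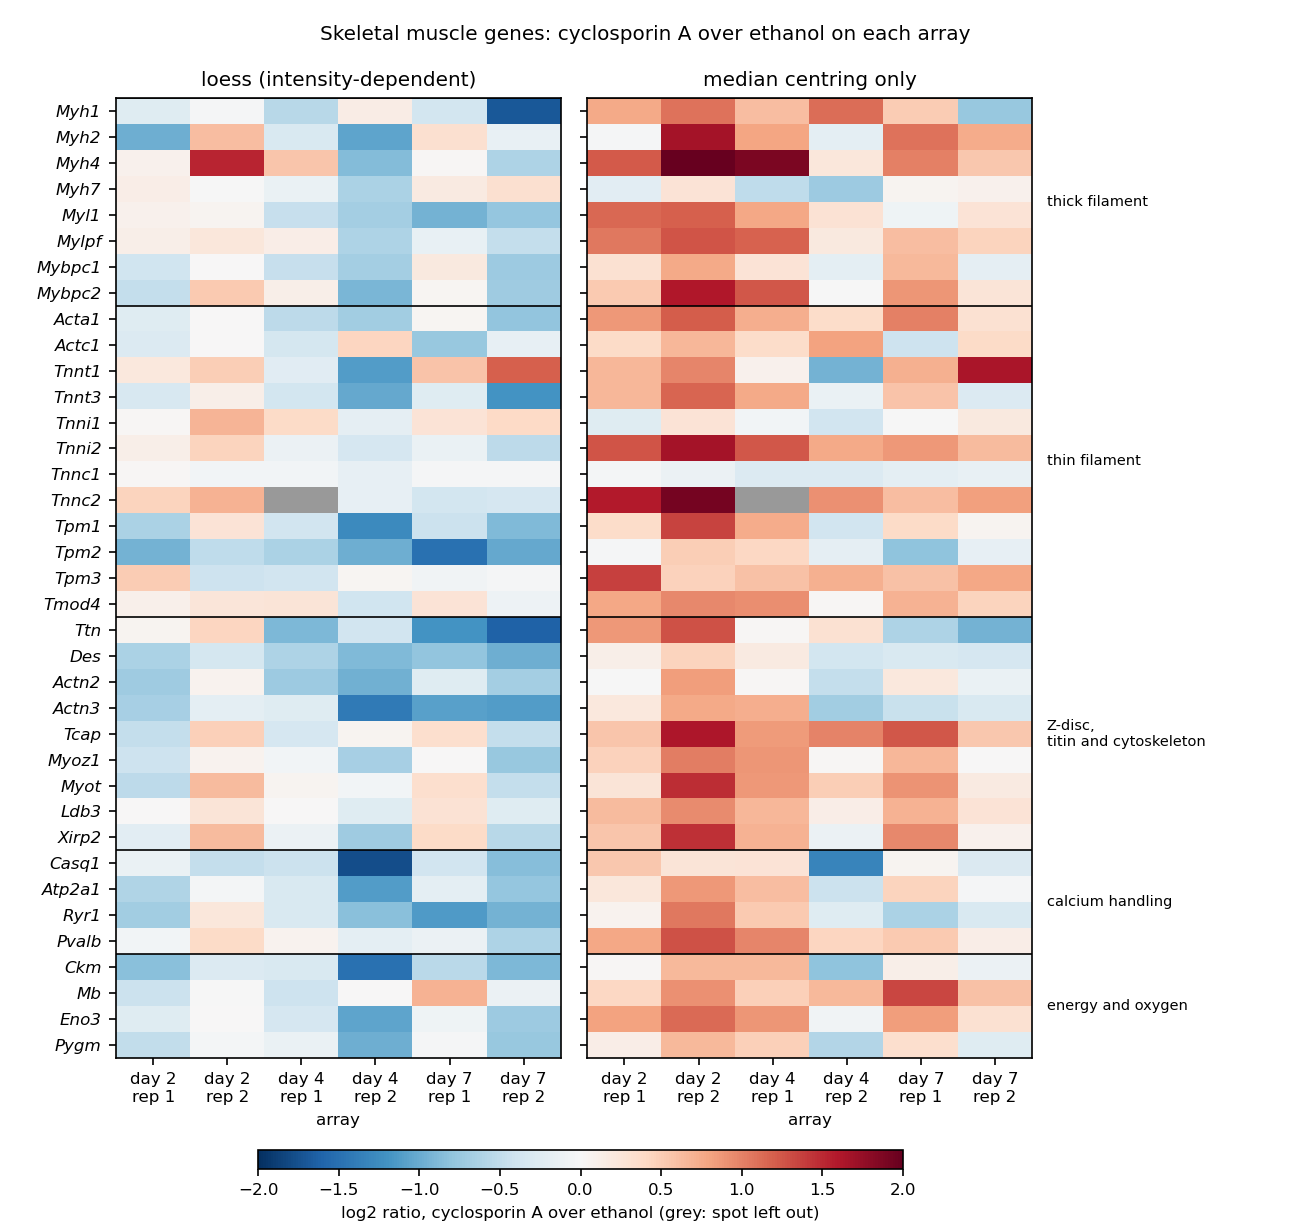
Log2 ratio of cyclosporin A over ethanol for the 37 muscle genes tested (rows, grouped by role) on each of the 6 arrays (columns), after loess (left) and after median centring alone (right), with the colour scale in log2 units and grey for a spot left out. Under loess most genes were below 0 on day 4 replicate 2 and day 7 replicate 2 (medians -0.68 on both), while under median centring 36 of 37 genes had a day 2 mean above 0.

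At day 7, 4 of the 37 muscle genes fell under loess and 0 rose, and 1 of the 4, Ttn, also fell under median centring. They were Ttn, the giant titin spring of the sarcomere, Tpm2, beta-tropomyosin of the thin filament, Des, the desmin filament that ties myofibrils together, and Myl1, an essential light chain of fast myosin. Over all genes 0.642% were called lower at day 7 and 2.35% higher. In the brightest 10% of genes, which held 25 of the 37, loess called 2.42% lower at day 7 and 57.4% lay below 0. Of the 37 genes, 30 lay below 0, 11 reached an unadjusted p below 0.05 (5025 of 22750 over all genes), and the median was -0.37, against 45.9% of all genes below 0 and a median of 0.029. With median centring 1 gene was called lower (Ttn), against 2.55% of all genes, 4 were called higher (Tnnc2, Tnni2, Mb and Tnnt1), against 19.3% of all, 10 lay below 0 and the median was 0.24.

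Ttn had loess ratios of 0.06 and 0.43 at day 2, -0.9 and -0.39 at day 4, and -1.2 and -1.61 at day 7. Both day 7 arrays were lower than any array of the earlier days. Its level, as log2 intensity normalized across arrays, was 12.26 and 11.35 in cyclosporin A skin against 13.46 and 12.97 in ethanol skin at day 7. Ttn fell by 1.41 (SE 0.178, 2.65-fold lower, limma adjusted p = 0.0168), and by 0.78 under median centring (adjusted p = 0.0194). The 7 other Ttn probes were also below 0 at day 7, and all 8 ranged between -1.41 and -0.49 with 1 called. The mean of its probes gave -0.72 (adjusted p = 0.155), so that the call rests on the brightest probe.

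For Tpm2 the ratios were -0.95 and -0.51 at day 2, -0.64 and -0.97 at day 4, and -1.5 and -1.02 at day 7. All 6 arrays were below 0 under loess, and 4 of 6 under median centring. Its level at day 7 was 13.24 and 13.7 in cyclosporin A skin against 14.74 and 14.73 in ethanol skin. Tpm2 fell by 1.26 at day 7 (SE 0.174, 2.4-fold lower, limma adjusted p = 0.0206), with -0.49 under median centring (adjusted p = 0.168). A second, dimmer probe gave -0.69.

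Des was also below 0 on all 6 arrays under loess, and on 3 of 6 under median centring. Its loess ratios were -0.64 and -0.35 at day 2, -0.61 and -0.88 at day 4, and -0.79 and -0.97 at day 7. Its day 7 level was 11.37 and 11.1 in cyclosporin A skin against 12.15 and 12.06 in ethanol skin. Des fell by 0.88 at day 7 (SE 0.134, 1.84-fold lower, limma adjusted p = 0.0265), with -0.32 under median centring (adjusted p = 0.222). Desmin is made in smooth muscle as well.

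Myl1 gave 0.09 and 0.06 at day 2, -0.46 and -0.68 at day 4, and -0.94 and -0.78 at day 7 under loess. The 3 days did not overlap. Its day 7 level was 15.31 and 15.62 in cyclosporin A skin against 16.24 and 16.41 in ethanol skin. Myl1 fell by 0.86 under loess (SE 0.117, 1.81-fold lower, limma adjusted p = 0.0196), but gave 0.09 with median centring (adjusted p = 0.721).

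These 4 calls depended on single arrays and on the signal used. Without day 7 replicate 1 or without day 7 replicate 2, limma called 0 of the 37 genes, without either day 4 array it called 1, and without either day 2 array it called 5. With 1 array left at day 7 the residual spread came from the other days alone, and the lone array was taken to vary like them. The values were then between -1.61 and -1.2 for Ttn, -1.5 and -1.02 for Tpm2, -0.97 and -0.79 for Des, and -0.94 and -0.78 for Myl1. On the scanner software's processed signals and on the deposited ratios 0 were called at day 7, with Ttn at -1.06 on both.

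**Figure D2:**
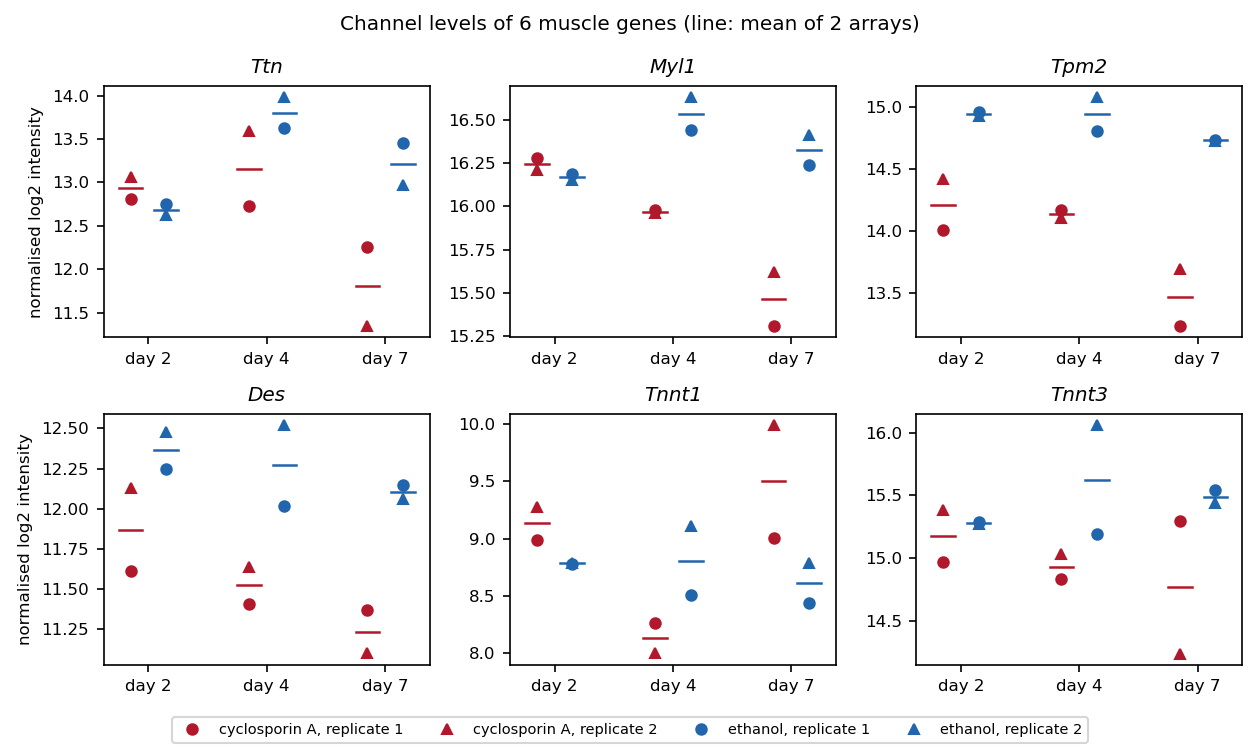
Level of 6 muscle genes as normalised log2 intensity (y axis, a separate range in each panel) in cyclosporin A skin (red) and ethanol skin (blue) at days 2, 4 and 7, with a circle for replicate 1, a triangle for replicate 2 and a line for the mean of 2 arrays. At day 7 the red points of Ttn, Myl1, Tpm2 and Des lay below the blue points, and those of Tnnt1 lay above; these levels follow loess, and under median centring the day 7 ratio of Myl1 was 0.09.

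The sequences just upstream of the start sites of these 4 genes, and of Tnnt1, the muscle gene with the highest ratio at day 7, are shown because the muscle factors MyoD and MEF2 are known to act on such regions. The 250 bases before each start come from RefSeq (assembly GRCm38.p6), read 5′ to 3′ on the gene's strand. Capitals mark the E-box letters CAGCTG, the MEF2 box or the CArG box, each searched on both strands.
Ttn lies at chr2:76982548-76982797, minus strand.
Ttn: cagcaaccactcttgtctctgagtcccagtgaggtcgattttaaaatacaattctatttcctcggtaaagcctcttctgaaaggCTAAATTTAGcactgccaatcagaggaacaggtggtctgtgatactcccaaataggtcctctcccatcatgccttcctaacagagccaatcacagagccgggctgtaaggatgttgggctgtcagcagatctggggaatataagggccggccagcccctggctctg
Tpm2 lies at chr4:43523555-43523804, minus strand.
Tpm2: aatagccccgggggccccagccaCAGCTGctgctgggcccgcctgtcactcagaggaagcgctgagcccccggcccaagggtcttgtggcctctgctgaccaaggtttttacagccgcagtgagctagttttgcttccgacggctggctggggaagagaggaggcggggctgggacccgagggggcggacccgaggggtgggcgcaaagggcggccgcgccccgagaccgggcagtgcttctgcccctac
Des lies at chr1:75360042-75360291, plus strand.
Des: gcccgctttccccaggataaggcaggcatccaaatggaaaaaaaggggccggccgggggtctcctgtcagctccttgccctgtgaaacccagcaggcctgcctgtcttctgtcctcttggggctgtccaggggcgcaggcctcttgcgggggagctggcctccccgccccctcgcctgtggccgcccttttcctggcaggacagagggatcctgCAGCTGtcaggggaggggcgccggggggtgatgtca
Myl1 lies at chr1:66945057-66945306, minus strand.
Myl1: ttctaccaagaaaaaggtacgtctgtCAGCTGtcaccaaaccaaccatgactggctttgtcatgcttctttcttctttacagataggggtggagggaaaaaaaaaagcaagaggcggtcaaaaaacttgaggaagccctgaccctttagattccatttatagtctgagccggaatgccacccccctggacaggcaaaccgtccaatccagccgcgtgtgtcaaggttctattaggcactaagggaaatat
Tnnt1 lies at chr7:4515976-4516225, minus strand.
Tnnt1: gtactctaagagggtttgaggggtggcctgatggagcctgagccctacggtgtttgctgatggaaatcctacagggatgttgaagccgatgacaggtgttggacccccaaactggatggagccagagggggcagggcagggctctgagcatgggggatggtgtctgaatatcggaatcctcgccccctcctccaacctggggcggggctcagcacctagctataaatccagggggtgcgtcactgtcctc
Counted from the start site, the E-box began at -36 in Des, at -224 in Myl1 and at -227 in Tpm2. The Ttn window held a MEF2 box that began at -166, and the Tnnt1 window held none of the 3 motifs. Such a window was available for 32 of the 40 genes, with 40 windows in all. The E-box occurred in 17 of these 40 windows and in 13% of 32851 windows of all genes. The MEF2 box occurred in 5 of 40 and 2.92% of all, and the CArG box, bound by serum response factor, in 5 of 40 and 1.47% of all. The NFAT core GGAAA, which can share its first letters with the end of a CArG box, was searched likewise without capitals and occurred in 19 of 40 and in 55.6% of all. Windows of the same gene can overlap and share a site. By gene the E-box occurred in 15 of 32, the MEF2 box in 5, the CArG box in 4 and the NFAT core in 17. A match describes the letters in the window and is not a binding site.

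Genes of the thick filament were mostly below 0 at day 7 under loess. Of 9 listed, 8 were tested, 6 lay below 0, 1 was called (Myl1) and the median was -0.31, against 0.38 under median centring. The fast myosin heavy chain Myh1 gave -0.37 and -1.7 at day 7 (mean -1.03, limma adjusted p = 0.128) and at -0.13 under median centring. These 2 arrays differed by more than their mean. A second Myh1 probe gave -0.42. Myh4, the fastest heavy chain, gave 0.02 and -0.62 at day 7 and was -0.30 (0.78 under median centring). It stood at 1.52 on day 2 replicate 2 and at 0.09 on day 2 replicate 1. Myh2 stood at 0.32 and -0.15 at day 7 on its brightest probe, and its 3 probes ranged between -0.41 and 0.09. The heavy chain genes lie in a cluster of near-identical paralogs, and cross-hybridisation between them was not tested. The regulatory light chain Mylpf was at -0.15 and -0.47, and the myosin-binding proteins Mybpc1 and Mybpc2 at -0.26 and -0.34 on average. Under median centring Mylpf was at 0.53, Mybpc1 at 0.24, Mybpc2 at 0.57 and Myh2 at 0.91.

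Genes of the thin filament had a median of -0.34 at day 7 under loess and 0.40 under median centring, with 9 of 12 below 0 and 1 called lower (Tpm2). Acta1, skeletal alpha-actin, was at 0.04 and -0.79 at day 7 and at 0.66 under median centring. Tnni2 and Tnnc2, the fast troponin I and troponin C, were at -0.13 and -0.52, and at -0.36 and -0.34. Both were called higher under median centring, at 0.76 (limma adjusted p = 0.0246) and 0.72 (adjusted p = 0.0236). The direction of the bright troponin genes thus depended on the normalization. Tpm1, another tropomyosin, gave -0.65 on its bright probe and 0.16 on a dimmer one. Actc1, cardiac alpha-actin, was at -0.76 and -0.17, and the pointed-end cap Tmod4 at 0.28 and -0.1. Under median centring Tpm1 was at 0.22, Actc1 at -0.02 and Tmod4 at 0.57.

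Z-disc genes, titin and the cytoskeleton had a median of -0.37 (0.34 under median centring), with 8 of 9 below 0 and 2 called lower at day 7 (Ttn and Des). Actn3, the alpha-actinin of fast fibres, was at -1.09 and -1.12 on the arrays of day 7, and on day 4 at -0.25 and -1.41. Its day 7 mean of -1.11 missed the threshold (SE 0.262, limma adjusted p = 0.0811) and was -0.37 under median centring. Its paralog Actn2 was at -0.24 and -0.68. The brightest probe of Myoz1, a calcineurin-binding protein of the Z-disc, gave -0.37 and a second one -1.28, and the second was called when probes were tested one by one (adjusted p over all probes = 0.0315, where 0.544% of all probes were called lower). Tcap, which caps titin at the Z-disc, was at 0.34 and -0.47, Myot at 0.33 and -0.48, Ldb3 at 0.29 and -0.24, and Xirp2 at 0.39 and -0.56. In these last 4 genes replicate 1 was above 0 and replicate 2 below it. Under median centring they were at 0.89, 0.54, 0.49 and 0.53, Actn2 at 0.04 and Myoz1 at 0.34.

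The 4 calcium handling genes were all below 0 at day 7 under loess, while Atp2a1 and Pvalb were above 0 under median centring. Their median was -0.55 under loess and 0.05 under median centring, with 0 called by limma (unadjusted p below 0.05 in 1). Ryr1, the calcium release channel, was at -1.14 and -0.95 (mean -1.04, SE 0.233, adjusted p = 0.0703), and at -0.46 under median centring. Its second probe gave -1.31 and was called when probes were tested one by one (adjusted p = 0.0367). Casq1, which stores calcium in fast fibres, was at -0.38 and -0.85, the calcium pump Atp2a1 at -0.2 and -0.78, and the calcium buffer Pvalb at -0.12 and -0.62. Of the 4 genes of energy and oxygen supply limma called 0 (unadjusted p below 0.05 in 1) and the median was -0.40, or 0.30 under median centring. Ckm, muscle creatine kinase, was at -0.54 and -0.9, the glycolytic enolase Eno3 at -0.08 and -0.73, the glycogen phosphorylase Pygm at -0.03 and -0.76, and Mb, myoglobin, at 0.7 and -0.11. Under median centring Mb was called higher, at 0.96 (adjusted p = 0.0223), with Eno3 at 0.56, Pygm at 0.04 and Ckm at 0.

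Brightness differed between the muscle genes and the rest. Of the 37 muscle genes, 25 lay in the brightest 10% of the genes tested by mean spot intensity, a property of the probe as well as of the transcript. Under median centring the ratio of other genes grew with brightness at day 7. Its median was 0.63 for 694 other genes between 13 and 14 log2 units of intensity, 0.90 for 164 genes between 15 and 16, and 1.19 for 106 genes above 16. The muscle genes in the same bins had medians of 0.33 (7 genes), 0.22 (5 genes) and 0.69 (6 genes). In these 3 bins they were above 0 and below other genes of like brightness. Over all 7 bins above 10 log2 units the muscle median was below that of the other genes in 7 and above 0 in 6, with -0.04 between 11 and 12 units. Under 10 units it was higher than that of the other genes, at 1.17 (1 gene) against 0.27 between 8 and 10 and at 0.07 (3 genes) against -0.09 below 8. Under loess the medians of the other genes were -0.06, 0.01 and 0.16 in these bins, and those of the muscle genes -0.37, -0.65 and -0.36. At day 2 the muscle genes above 16 stood at 1.32 under median centring, against 1.39 for the other genes.

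**Figure D3:**
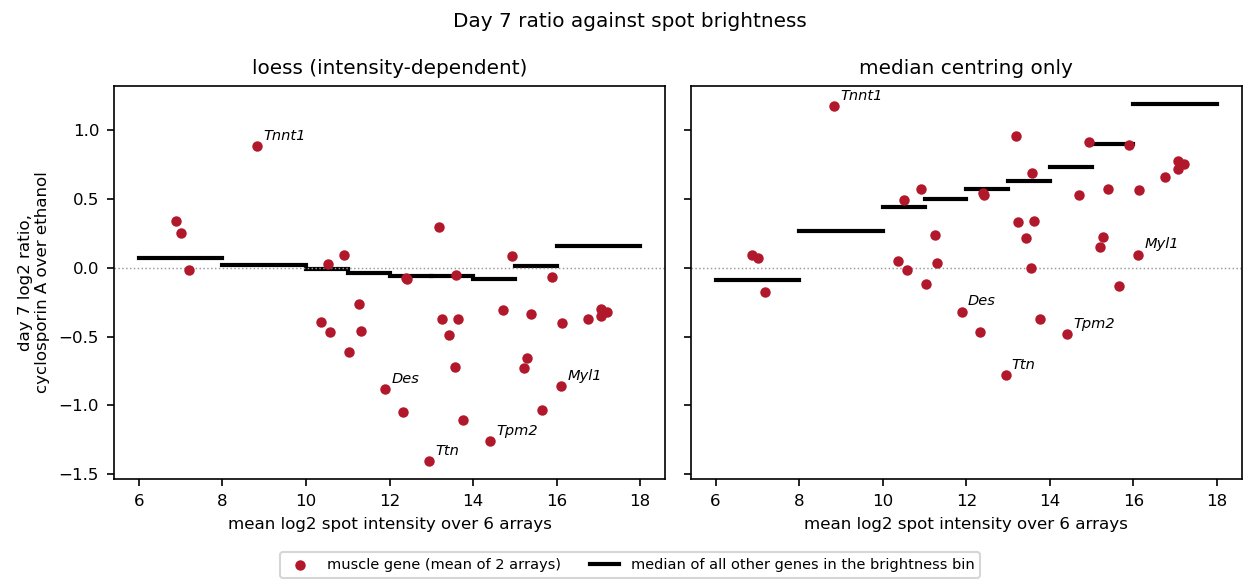
Day 7 log2 ratio of cyclosporin A over ethanol (y axis) against mean log2 spot intensity over 6 arrays (x axis) for each muscle gene (red points, mean of 2 arrays), with black bars for the median of all other genes in a brightness bin, after loess (left) and median centring alone (right). Under median centring the bars climb to 1.19 above 16 log2 units while the muscle genes there had a median of 0.69, and under loess the bars stay between -0.08 and 0.16.

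At day 4, 0 muscle genes were called by limma under loess, and 17 had an unadjusted p below 0.05 (3404 of 22750 over all genes). Of the 37 genes 34 lay below 0 and the median was -0.41. Over all genes 0% were called lower and 0.0044% higher at day 4, so that this comparison called almost nothing for any gene. The lowest p belonged to Des (-0.75, SE 0.134), Myl1 (-0.57, SE 0.117) and Tpm2 (-0.80, SE 0.174), each with a limma adjusted p of 0.179, and Actn2 (-0.84, adjusted p = 0.189). Under median centring Myl1 was at 0.54, Tpm2 at 0.12, Des at -0.10 and Actn2 at -0.22. The median of the 37 genes was then 0.31, against 0.81 for the brightest 10% of genes, which held 25 of them. Of the 37, median centring called 4 higher (Tnni2, Tnnc2, Pvalb and Tcap), against 23.1% of all genes, and 1 lower (Myh7, -0.62), against 1.42% of all. The lowest single value was Casq1 on replicate 2, at -1.78, with -0.43 on replicate 1.

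At day 2 the muscle genes did not lean one way under loess. Of 37 genes 20 lay below 0, the median was -0.10, and limma called 0 (unadjusted p below 0.05 in 3, against 2202 of 22750 over all genes). Over all genes 0% were called. Tnnc2 stood at 0.45 and 0.7 (mean 0.58, adjusted p = 0.471), Tpm2 at -0.95 and -0.51, and Des at -0.64 and -0.35 (both adjusted p = 0.471). With median centring 17 of the 37 were called higher and 0 lower, when 35.3% of all genes were called higher and 3.05% lower. The median of the 37 was 0.83, against 0.87 for the brightest 10% of genes, which held 25 of them. Tpm2 and Des then stood at 0.24 and 0.28, under the median of all genes, and 6 of the 37 genes lay below it.

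Averaged over the 3 days, 9 muscle genes fell under loess and 0 rose, against 3.41% of all genes lower and 9.67% higher. Tpm2 (-0.93, SE 0.1) and Des (-0.71, SE 0.0776) had the lowest p, each with a limma adjusted p of 0.00907. The other 7 were Myl1 (-0.45), Ttn (-0.60), Actn3 (-0.79), Ryr1 (-0.62), Actn2 (-0.54), Ckm (-0.72) and Casq1 (-0.68), with adjusted p between 0.0158 and 0.0493. Of 37 genes 31 lay below 0 and the median was -0.26. With median centring 0 were called lower and 22 higher, against 10.6% and 49.2% of all genes. The median was then 0.52 against 0.279 for all genes, and 13 of the 37 lay below that of all genes. The brightest 10% of genes, which held 25 of the 37, had medians of 0.87, 0.81 and 0.64 at days 2, 4 and 7. Under median centring Ttn, Myl1, Actn2, Actn3, Ryr1 and Ckm were above 0 on average, and Tpm2 (-0.04), Des (-0.05) and Casq1 (-0.08) were close to 0. The loess count was 0 without day 4 replicate 2, 5 without day 4 replicate 1, 3 and 7 without replicates 1 and 2 of day 2, and 4 and 3 without replicates 1 and 2 of day 7.

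The difference between days asks whether the ratio itself moved, and a dye effect that all arrays share cancels in it. From day 2 to day 7 the ratio was lower in 32 of 37 muscle genes, with a median difference of -0.28 under loess and -0.41 under median centring, where that of all genes was -0.124. The lean rested on single arrays. Without day 7 replicate 2, 18 of 37 genes were lower with a median of 0, and without day 2 replicate 2, 21 were lower with a median of -0.04, while it was -0.53 without replicate 1 of either day. By limma 0 passed under loess (unadjusted p below 0.05 in 5, against 1394 of 22750 over all genes), while over all genes 0% were lower and 0.264% higher. Ttn had the lowest p, with a difference of -1.65 (SE 0.252, adjusted p = 0.111). With median centring its difference was -1.85 (adjusted p = 0.0338). It was then the 1 gene called lower of all 22750 (0.0044%), with 0.259% higher. On its 8 probes the loess difference ranged between -1.66 and 0.08, and the mean of its probes gave -0.50 (adjusted p = 0.914). Myl1 (-0.94, adjusted p = 0.195), Tnnc2 (-0.92, adjusted p = 0.295) and Tnni2 (-0.60, adjusted p = 0.727) followed by p.

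From day 2 to day 4 the loess ratio was lower in 35 of 37 genes, with a median difference of -0.39 and 0 called by limma (unadjusted p below 0.05 in 4, against 510 of 22750 over all genes, and 0% of all genes called). Without day 2 replicate 2 the median was -0.13 (26 genes lower), without day 4 replicate 2 it was -0.16 (27 lower), and without replicate 1 of either day it was -0.63. Under median centring the median was -0.45, against -0.053 for all genes. Myl1 differed by -0.64, Ttn by -0.89, Tnnc2 by -0.74 and Tnnt1 by -1.03 (adjusted p = 0.999 each), with Tnnc2 missing 1 spot on day 4 replicate 1. From day 4 to day 7 16 of 37 genes were lower, the median difference was 0.09, and limma called 0 (unadjusted p below 0.05 in 3, against 1017 of 22750 over all genes, with 0% of all genes called lower and 0.202% higher). The median was 0.04 under median centring (18 lower) and -0.40 under scale normalization (30 lower), which puts all arrays on the same spread. It was -0.18 without day 4 replicate 2 (24 lower) and without day 7 replicate 1 (28 lower), 0.30 without day 4 replicate 1 and 0.36 without day 7 replicate 2. Tnnt1 had the lowest p there, at 1.56 (SE 0.338, adjusted p = 0.487), followed by Ttn (-0.76), Myh7 (0.64) and Myh1 (-0.83), each at an adjusted p of 0.934. The comparisons share the arrays of a day, and their values are therefore not independent of each other.

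Levels of single channels are given after loess only, and not under median centring. Set apart by channel, the muscle genes were lower at day 7 than at day 2 in cyclosporin A skin in 34 of 37 cases, with a median difference of -0.36. In ethanol skin 22 of 37 were lower and the median was -0.03. By limma 0 were called in either channel. An unadjusted p below 0.05 was reached by 7 genes with cyclosporin A and 4 with ethanol, against 3180 and 2636 of 22750 over all genes. Over all genes 0.0484% were lower and 0.954% higher in the cyclosporin A channel, and 0.0044% lower and 0.0308% higher in the ethanol channel. In the cyclosporin A channel Myl1 differed by -0.78 (adjusted p = 0.093), Ryr1 by -1.04 (adjusted p = 0.137), Tpm2 by -0.74 (adjusted p = 0.189) and Ttn by -1.13 (adjusted p = 0.216). In the ethanol channel Ttn stood at 12.75 and 12.62 at day 2, 13.63 and 13.98 at day 4, and 13.46 and 12.97 at day 7. Its ethanol level was thus lowest at day 2, with a difference between day 7 and day 2 of 0.53 that did not pass. Without single arrays the median of the cyclosporin A channel ranged between -0.66 and -0.02.

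Slow and fast isoforms of the same protein were set side by side at day 7. The fast genes lay below 0 in 12 of 13 cases with a median of -0.37 and 1 called (Myl1), and the 6 slow genes tested of 7 had a median of 0.11 with 3 below 0 and 0 called (unadjusted limma p below 0.05 in 1). With median centring the medians were 0.34 for the fast and 0.17 for the slow genes. The slow list mixed bright and dim genes. Its tropomyosin Tpm3, at -0.05 under loess and 0.69 under median centring, had a mean intensity of 13.58 log2 units. Tnni1, Tnnc1 and Myh7 had 6.88, 7.19 and 7.02. At day 4 both lists were below 0, with medians of -0.36 for the fast and -0.28 for the slow genes. Slow troponin T, Tnnt1, was at 0.57 and 1.2 on the day 7 arrays, and fast troponin T, Tnnt3, at -0.25 and -1.2. The 2 genes did not overlap at day 7. The day 7 level of Tnnt1 was 9.01 and 9.99 in cyclosporin A skin against 8.44 and 8.79 in ethanol skin. Its ratio of 0.89 missed the threshold under loess (SE 0.239, adjusted p = 0.107) and passed under median centring (1.17, adjusted p = 0.0309), and at day 4 it was at -0.23 and -1.11. Tnnt3 was at -0.73 under loess (adjusted p = 0.175) and 0.15 under median centring.

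In the other 5 pairs the slow gene also had the higher value under loess. Slow troponin I, Tnni1, was at 0.34 against -0.32 for the fast Tnni2, slow troponin C, Tnnc1, at -0.02 against -0.35 for Tnnc2, and the slow heavy chain Myh7 at 0.25 against -0.30 for Myh4. Slow Mybpc1 was at -0.26 against -0.34 for the fast Mybpc2, and slow Casq2 at 0.87 against -0.62 for the fast Casq1. With median centring the fast members of the troponin I, troponin C, heavy chain and Mybpc pairs were the higher ones, with Tnni1 at 0.10, Tnnc1 at -0.18 and Myh7 at 0.07. In the troponin, heavy chain and Mybpc pairs the slow gene was also the dimmer one. Tnni1, Tnnc1 and Myh7 were well above background on 0, 1 and 2 of 6 arrays in the ethanol channel. In the cyclosporin A channel they were so on 6, 6 and 4 arrays. Tnnt1 and Mybpc1 were so on 6 of 6 arrays in both channels. Brightness and fibre type therefore cannot be told apart in these pairs, and the difference between isoforms was not tested.

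**Figure D4:**
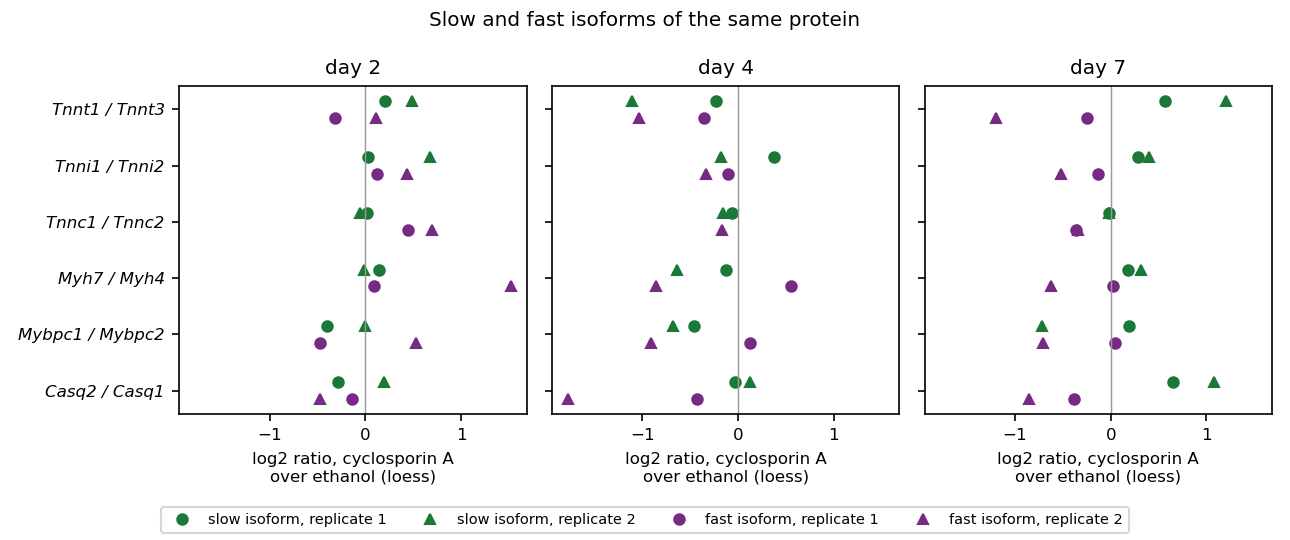
Log2 ratio of cyclosporin A over ethanol after loess (x axis) for the slow (green) and fast (purple) isoform of 6 proteins (rows, slow name first) at days 2, 4 and 7, with a circle for replicate 1 and a triangle for replicate 2. At day 7 both green points of Tnnt1 and of Casq2 lie right of both purple points of Tnnt3 and Casq1, and under median centring Tnnt3 was at 0.15 at day 7.

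Among other muscle genes, excitation-contraction coupling held calls in both directions at day 7. Of 15 tested of 18 listed, 2 fell and 1 rose, against 0.642% of all genes lower and 2.35% higher, and the median was -0.20 (-0.04 under median centring). Stac3, an adaptor of the voltage sensor, was at -1.03 and -0.75 and fell 1.85-fold (limma adjusted p = 0.0215). Jsrp1, a protein of the junctional reticulum, was at -0.73 and -0.71 and fell 1.65-fold (adjusted p = 0.0468). Under median centring neither was called, at -0.26 and -0.30. Casq2, the calsequestrin of slow fibres and heart, was at 0.65 and 1.08 and rose 1.83-fold (adjusted p = 0.0475), with 1.03 under median centring (adjusted p = 0.0119). It was not well above background in both channels on every array. Of the 6 fits that left out 1 array, 2 called each of these 3 genes. Its paralog Casq1 stood at -0.62 under loess and -0.12 under median centring.

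The remaining muscle lists had few calls at day 7. In muscle energy metabolism 1 of 16 fell, Cox6a2, the muscle form of a cytochrome oxidase subunit (-0.51 and -0.72, adjusted p = 0.0476), which stood at 0.16 under median centring and was called in 0 of the 6 fits that left out 1 array, and the median was -0.27. Limma called 0 of 9 muscle transcription factors tested, 0 of 9 genes of the neuromuscular junction, 0 of 12 of the dystrophin complex and membrane repair, 0 of 20 other sarcomere, M-band and chaperone genes, and 0 of 6 genes of satellite cells and fusion. The medians of these lists lay between -0.17 and -0.05, and each held 1 to 4 genes with an unadjusted p below 0.05. Averaged over days under loess, 4 coupling genes fell (Jph2, Srl, Stac3 and Jsrp1), as did Sgca and Dag1 of the dystrophin complex. Ppp1r3a, Pgam2 and Cox6a2 of energy metabolism also fell, against 3.41% of all genes called lower. Sgcb, 1 of 12 in the dystrophin complex list, and the fusion factor Mymk, 1 of 6 in its list, rose. Over all genes 9.67% were called higher, and a single call in lists this short does not stand apart from that share. With 1 array left out Jph2, Srl and Pgam2 were called in 0 of 6 fits and the others in 1 to 3. Under median centring Stac3, Jsrp1, Srl, Sgca, Dag1, Pgam2 and Cox6a2 lay above 0 on average.

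Markers of other tissues were read on the same arrays. The 5 epidermal keratinocyte genes tested had medians of 0.04 and -0.78 on the 2 arrays of day 7, where the muscle genes had -0.08 and -0.68, with 0 called (unadjusted limma p below 0.05 in 2). Their summed intensity ranged between 346397 and 560048 units in cyclosporin A skin and between 357297 and 626444 in ethanol skin, with all 5 well above background on 6 of 6 arrays in both channels. The 9 smooth muscle genes had medians of -0.41 and -0.59 at day 7, with 0 called (unadjusted p below 0.05 in 3), and Myh11 (-0.60) and Acta2 (-0.54) fell on average over days but stood at 0.08 and 0.33 under median centring. Their summed intensity ranged between 36684 and 51335 in cyclosporin A skin and between 46238 and 62861 in ethanol skin. The 10 adipocyte genes had medians of 0.11 and 0.43 at day 7, with 0 called (unadjusted p below 0.05 in 2) and sums between 237164 and 386500 in cyclosporin A skin and between 205528 and 441619 in ethanol skin. The 6 fibroblast genes had medians of -0.25 and -0.04, with 0 called (unadjusted p below 0.05 in 0) and sums between 379654 and 619468 in cyclosporin A skin and between 315397 and 627363 in ethanol skin. On average over days the adipocyte gene Fabp4 rose by 0.54 (limma adjusted p = 0.0441), with 1.63 under median centring, and all 10 adipocyte genes were higher at day 7 than at day 2 in value with 0 called (unadjusted p below 0.05 in 0). Myh11, Acta2 and Fabp4 were each called in 1 of the 6 fits that left out 1 array. With median centring the day 7 medians were 0.53 for the keratinocyte, 0.05 for the smooth muscle, 0.91 for the adipocyte and 0.84 for the fibroblast genes. The 6 heart genes had a median of -0.04 at day 7 with 0 called (unadjusted p below 0.05 in 0). The summed intensity of the 37 muscle genes at day 7 was 980614 and 773881 in cyclosporin A skin, against 1098190 and 1216048 in ethanol skin. At day 2 it was 1072958 and 1473386 against 1162069 and 1149053. At day 4 it was 865714 and 1096529 against 983975 and 1663920, with Tnnc2 missing on replicate 1. All sums given here follow loess, and the arrays were not scaled to each other for them. The median intensity of all genes itself lay between 353 and 443 on the arrays in the cyclosporin A channel and between 351 and 433 in the ethanol channel. No sum was made under median centring, where the median muscle ratio at day 7 was 0.24. The part of these tissues in the muscle values was not tested.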

How the data were processed

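Total RNA of back skin was hybridised to 6 dual-colour arrays, cyclosporin A in Cy5 and ethanol in Cy3. Per the submitters' processing notes, the deposited spot intensity of each channel comes from Agilent Feature Extraction 9.1. The authors' table of log10 values (Cy5 over Cy3) differed from the scanner files' ratio by at most 0. The array's genome build is not given in the sources used here. Depth does not apply to arrays. The median intensity was 134.5 to 187 in Cy5 and 203 to 277 in Cy3, 59.9% to 68.8% of probes in the cyclosporin A channel and 43.5% to 56.5% in the ethanol channel were well above background, and log2 ratios had an SD of 0.262 to 0.441 per array.

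Of 45018 spots, 1639 controls and 15 to 126 outlier spots per array were left out, and 0 were saturated. The median pixel intensity was corrected by normexp with offset 50, then normalized by loess in limma 3.58.1 (R 4.3.3). A probe was kept if, on each of the 2 arrays of some day, either channel was well above background (27938 of 41174). Of the 41174 probes, 22951 were named by accession through RefSeq (GRCm38.p6, names only), 67 by name and 18156 not at all. A probe without a name stood for itself. These steps gave 22750 genes, 13472 with a symbol and 9278 without. One mean per day was fitted over 6 arrays with limma (3 residual and 3.763 prior degrees of freedom), and p-values were adjusted by Benjamini-Hochberg. Channel levels were scaled with Aquantile. Members, lists and comparisons were chosen with earlier results of these data known. Members called in a comparison are named with their values, or else the 4 with the lowest p, and other members by role; from other lists the called genes are named. The fits were tested on simulated data. Titles number the replicates 1 and 2, while every description reads 1 of 2, and the titles were used. Same-numbered arrays did not deviate together (correlations of 0.01, -0.28 and -0.02 between days). The alternatives tried were median centring, scale normalization, no background subtraction, processed signals, deposited ratios, 2 other filters, 2 other rules for probes, a replicate block, each array left out, and loess fitted without muscle probes, the last chosen after seeing the data.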

Additional observations from a re-analysis of the deposited data

How the results depend on the processing

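Median centring moved most results. It gave 17 muscle genes called higher and a median of 0.83 at day 2, 1 lower, 4 higher and 0.31 at day 4, 1 lower, 4 higher and 0.24 at day 7, 0 lower, 22 higher and 0.52 on average, and 1 lower between days 7 and 2. It turned Tpm2 (0.24) and Des (0.28) above 0 at day 2, Myl1 (0.54) and Tpm2 (0.12) at day 4, and Myl1 (0.09) and Cox6a2 (0.16) at day 7. On average it did so for Ttn (0.15), Myl1 (0.60), Actn2 (0.08), Actn3 (0.04), Ckm (0.09), Ryr1 (0.08), Stac3 (0.31), Jsrp1 (0.11), Srl (0.16), Sgca (0.08), Dag1 (0.10), Cox6a2 (0.41), Pgam2 (0.36), Myh11 (0.08) and Acta2 (0.33). Muscle genes called lower at day 7 and on average were 0 and 0 under scale normalization, which called 0 of all genes but gave larger muscle ratios at day 7 (median -0.77, Ttn -2.17), and 0 and 2 both on processed signals and on deposited ratios. With the replicate block 3 were called lower at day 7 and 6 on average, and 0 in the other ratio comparisons. Without each array in turn, the count called lower was 0 to 5 at day 7 and 0 to 7 on average. The median was then -0.25 to 0.07 at day 2, -0.68 to -0.31 at day 4, -0.68 to -0.08 at day 7 and -0.40 to -0.18 on average. It was -0.53 to 0 between days 7 and 2, -0.18 to 0.36 between days 7 and 4, and -0.63 to -0.13 between days 4 and 2. In the channels it was -0.66 to -0.02 (0 to 1 called) with cyclosporin A and -0.11 to 0.07 with ethanol. Loess without muscle probes called the same genes lower, 4 at day 7 and 9 on average. Of all values recomputed, 929 were rated the same, 30 moved, 21 reversed and 3 gained a call. Another 264 kept direction and lost the call, whether smaller or larger in size. A gene was rated the same if it kept its direction and side of the threshold. A count was rated so if it changed by no more than a set factor. A median was rated so if it moved by less than the spread between arrays of the same day, and could therefore change sign. Dim slow genes are limited by signal over background. The causes were not tested.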
